A study of Mus musculus with 6 samples.

Results

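The core transcription regulators of the nephron progenitor were followed in progenitors with and without the miR-17~92 microRNA cluster. They were taken by symbol as Six2, Cited1, Osr1, Sall1, Eya1, Wt1, Pax2, Meox1, Meox2 and Uncx, and all 10 were found among the 27179 entries of the deposited table. Progenitors were sorted from mouse kidneys at E16.5, a stage of embryonic life, by green fluorescence driven from Six2, and their whole-transcriptome RNA was sequenced. The control genotype was Six2TGC, a transgene that expresses Cre recombinase and a green fluorescent protein under Six2 control, and the mutant genotype was Six2TGC;miR-17~92fl/fl, with both copies of the cluster floxed. There were 3 libraries of either genotype, made from progenitors of 4 embryos apiece. Every sample therefore carries Six2TGC, and the control labels name no floxed allele. The gate reads a reporter under Six2 control, so the sort itself selects for activity of 1 of the 10 regulators, and the number of progenitors in the kidney was not measured. In a bulk sample, fewer cells of a type and less RNA per cell cannot be told apart. The labels give no strain background, so effects of the deletion and of background carried with the floxed copies cannot be told apart.

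Nephron progenitors form a cap of mesenchyme over each tip of the branching ureteric bud, where they either renew or leave to build an epithelial nephron. Six2 holds them in the undifferentiated state, and Eya1 is its coactivator and phosphatase partner. Osr1, Sall1, Pax2 and Wt1 act in the kidney mesenchyme before and during this stage, and Cited1 marks the cells that have not yet answered inducing signals. Meox1, Meox2 and Uncx encode homeobox proteins that are known from the segmentation of the embryo body and are also transcribed in the cap. MicroRNAs of the miR-17~92 cluster lower the output of messages that pair with their seed, bases 2 to 8 of the mature strand, most often in the 3' UTR.

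The 6 guide strands of the deleted cluster are shown because they decide which regulators carry a match. Their genes lie on chromosome 14 of mm10, and none of the 10 regulators lies on that chromosome. Sequences are RefSeq's on GRCm38.p6, the assembly of mm10, written 5' to 3' with the seed in capitals. The strands miR-17-5p and miR-20a-5p share 1 seed, and miR-19a-3p and miR-19b-3p share another.
miR-17-5p: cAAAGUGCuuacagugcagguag
miR-20a-5p: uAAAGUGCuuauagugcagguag
miR-18a-5p: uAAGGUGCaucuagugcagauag
miR-19a-3p: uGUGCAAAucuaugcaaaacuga
miR-19b-3p: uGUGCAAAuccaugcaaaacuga
miR-92a-3p: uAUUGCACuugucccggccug

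A match was a site for bases 2 to 8 with a facing A (8mer), for bases 2 to 8 alone (7mer-m8), or for bases 2 to 7 with that A (7mer-A1), on the sense strand of the longest annotated 3' UTR. The 8mers searched were GCACTTTA for miR-17-5p and miR-20a-5p, GCACCTTA for miR-18a-5p, TTTGCACA for the miR-19 strands and GTGCAATA for miR-92a-3p; a 7mer-m8 lacks the last letter and a 7mer-A1 the first, and matches of different seeds may overlap. By this count 2 of the 10 regulators, Osr1 and Sall1, held a match, beside 47.5% of 11568 tested genes with a 3' UTR. Both matches were to the miR-17-5p and miR-20a-5p seed, which 22.8% of those genes match. The 2 sites are printed below with the paired bases in capitals, since no other regulator had one in its longest 3' UTR. The Osr1 site is an 8mer at bases 788 to 795 of an 875-base 3' UTR, and the Sall1 site is a 7mer-m8 at bases 1015 to 1021 of 1143.
Osr1: ttgcgactgGCACTTTAtgctg
Sall1: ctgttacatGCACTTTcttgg
In the shortest annotated 3' UTR of each gene Eya1 also held a match, to miR-92a-3p, so 3 of 10 did, beside 29.6% of tested genes. Median length of the longest 3' UTR was 1120 bases in the regulators and 1230 in the tested genes. For the shortest 3' UTR it was 747 bases in the regulators and 456 in the tested genes. A match is a description of letters only, and mature microRNAs were not measured.

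The targeted locus was checked first. For Mir17, control pools gave 31, 26 and 16 reads, and mutant pools gave 2, 0 and 0, a loss that goes with the labels. The host transcript entry Mir17hg moved the other way, at 45.4, 33.6 and 52.9 RPKM in controls and 259, 183 and 194 RPKM in mutants. Depths, computed from the grid of low RPKM values, ran from 27602026 to 36134383 reads. Reads on the entries came to 70.9%, 72.7% and 69.4% of depth in control replicates 1 to 3. In mutant replicates 1 to 3 they came to 67.5%, 61.5% and 67.1%, lower in every mutant pool. RPKM divides by the whole depth, and the part of this share in the fold changes on deposited values was not tested. All 10 regulators were well covered, with 193 to 40395 reads per gene and library. The median of all tested genes was -0.12 on the log2 scale between mutants and controls, and median-of-ratios scaling brought it to -0.03. With that scaling 433 of 13441 genes (3.22%) were called, 262 of them higher, against 178 of 422 on the deposited values. Markers of other cells were low except for the stroma list, whose 14 genes summed to 90.9 to 229 RPKM in controls and 162 to 268 in mutants. The macrophage and leukocyte list summed to 5.97 to 10.5 RPKM in controls and 17.8 to 19.5 in mutants, while endothelium lay between 2.6 and 5.34 in all libraries. The ureteric bud list summed to 5.58 to 12.3 RPKM in controls and 10.6 to 18.8 in mutants, the nephron tubule list to 3.92 to 4.82 and 7.12 to 19.6, the podocyte list to 8.54 to 9.22 and 5.93 to 14.3, and the erythroid list to 6.92 to 13.3 and 8.36 to 12.7. No list had a gene at 0 in all 6 libraries, and the part of these cells in the results was not tested.

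RPKM is reads scaled to gene length in kilobases and to library depth, so levels can be set beside each other across genes. All 10 regulators were above 1 RPKM in every library. The cells were gated on a Six2 reporter and the list was chosen with earlier results known, so this does not test cell identity. In controls their order by mean ran Eya1 (284 RPKM), Six2 (85.7), Sall1 (57.8), Wt1 (46.7), Pax2 (34.5), Osr1 (24.2), Cited1 (23), Meox1 (16.2), Uncx (16.1) and Meox2 (4.74). The ranges of neighbours in that order overlapped for Pax2 with Osr1, Osr1 with Cited1, and Meox1 with Uncx. In mutants the order was the same except that Uncx stood above Meox1, with no overlap between those 2. There the ranges of neighbours overlapped for Six2 with Sall1, Sall1 with Wt1, Osr1 with Cited1 and Cited1 with Uncx, but not for Pax2 with Osr1.

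**Figure D1:**
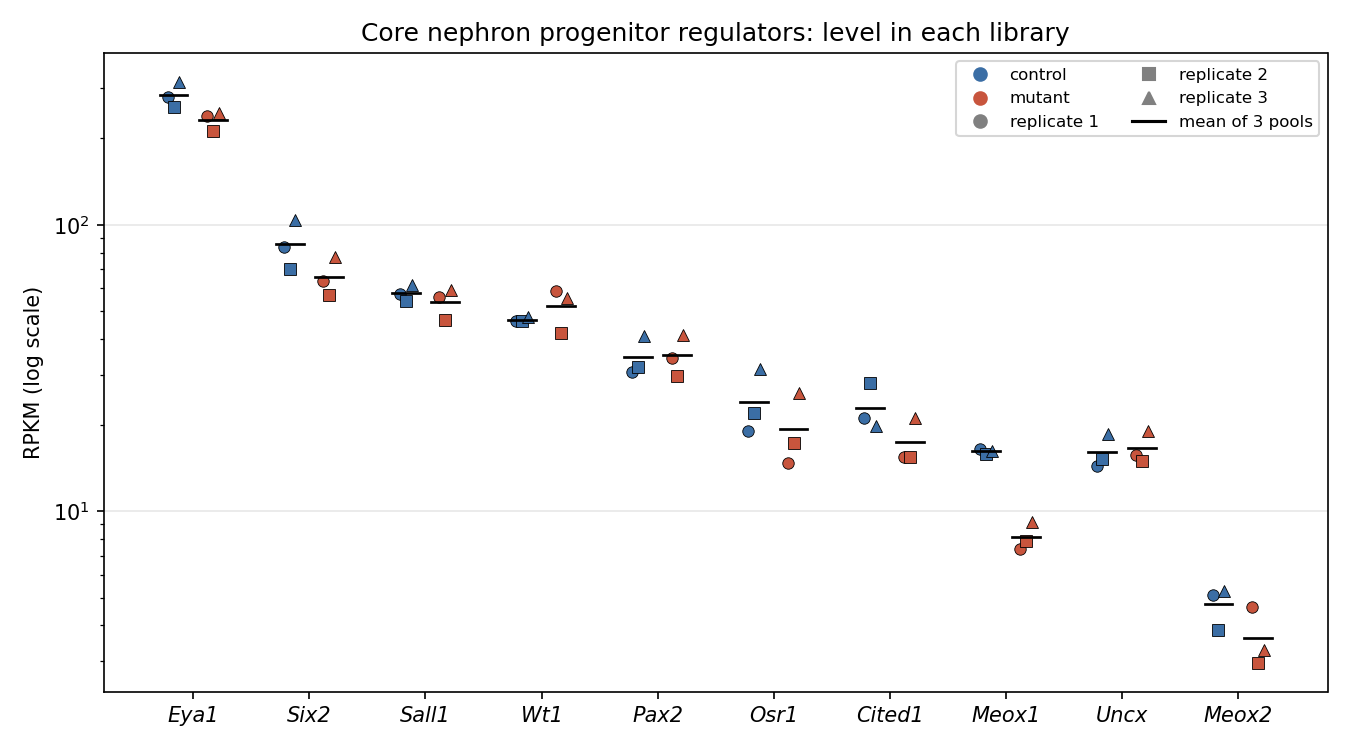
RPKM of each regulator on a log axis in 3 control pools (blue) and 3 mutant pools (red), with marker shapes for replicates and bars for the mean of 3. The red Meox1 points, 7.39 to 9.21, lie well below its blue points, 15.86 to 16.52, while Pax2 and Uncx points mix.

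Which of these regulators differ in progenitors lacking the cluster was tested in 1 limma fit over 13463 genes. Meox1 fell, and the other 9 did not pass at an adjusted p of 0.05. That is 1 of 10 called in either direction, beside 3.13% of all tested genes: 1 of 10 lower, beside 1.81%, and 0 of 10 higher, beside 1.32%. At an unadjusted p below 0.05 there were 3 of 10, Six2, Cited1 and Meox1, beside 19.6% of all tested genes. The 10 genes had a median log2 fold change of -0.30, beside -0.12 for all tested genes, and of -0.20 with median-of-ratios scaling, beside -0.03. On the deposited values 7 of the 10 lay below 0, beside 68.1% of all tested genes, a share near the background. After that scaling 7 of 10 did, beside 55.3%. The groups did not overlap in Meox1 and Eya1, both lower in mutants, and 18% of all tested genes showed this in that direction. No regulator was without overlap in the higher direction, where the share of all genes was 7.06%, and for either direction it was 25.1%. These are counts over genes whose membership was chosen with earlier results known, so they describe the list and support nothing further.

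Meox1 (Entrez Gene 17285) lies on the minus strand of chromosome 11, at 101877510 to 101894374 of mm10. Its levels were 16.52, 15.86 and 16.28 RPKM in control replicates 1 to 3, and 7.39, 7.89 and 9.21 RPKM in mutant replicates 1 to 3. The control values lay within 1 RPKM of each other, and every mutant value was far below all of them. Mean level went from 16.2 ± 0.336 to 8.16 ± 0.937 RPKM (SD, n = 3 pools each), which is 50.3% of the control mean. Its log2 fold change, -0.95 (standard error 0.13), had a 95% interval of -1.25 to -0.66 and a limma adjusted p of 0.00271. Behind these levels stood 1075, 1265 and 1011 Meox1 reads in control pools, against 494, 484 and 561 in mutant pools. The call held in all 18 alternative analyses, of which the looser threshold of 0.1 on the main fit could not end it. Limma adjusted p lay between 0.000501 and 0.0253, and the Meox1 log2 fold change was -0.85 after median-of-ratios scaling. No seed match was found in its 1097-base 3' UTR. One antisense gene model, Gm11551, lies within Meox1 and was not analysed here, and whether the authors' counting used strand is not given in the sources used here.

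Meox2, the other member of this homeobox pair, lies on chromosome 12 at 37108540 to 37179534. It measured 5.09, 3.85 and 5.29 RPKM in controls and 4.63, 2.96 and 3.29 RPKM in mutants. Mutant replicate 1 lay inside the control range and the other two mutant pools lay below it. Its log2 fold change was -0.36 (95% interval -0.77 to 0.06; limma adjusted p 0.32). Meox2 rested on fewer reads than the rest, 193 to 352 a library. The ratio of Meox1 to Meox2 within a library is free of library scaling. It was 3.25, 4.11 and 3.08 in controls and 1.6, 2.67 and 2.8 in mutants. These ranges did not overlap, and the log2 ratio was lower by a mean difference of -0.60 in mutants. An exact two-sided permutation test gave p = 0.1, the smallest that 3 against 3 pools allow, and 0.317 after Benjamini-Hochberg adjustment over the 19 ratios computed.

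Six2 itself, on chromosome 17 at 85684277 to 85688274, was at 83.5, 69.9 and 103.7 RPKM in controls and 63.5, 57 and 77 RPKM in mutants. The highest mutant pool stood above the lowest control pool, so the groups overlapped. The mutant mean was 76.9% of the control mean, with a log2 fold change of -0.37 (95% interval -0.73 to -0.01; limma adjusted p 0.249). After median-of-ratios scaling the log2 fold change was -0.27, with an interval of -0.64 to 0.10, and after quantile normalization it was -0.20. Six2 is also the gene whose regulatory sequence drives the sorting reporter, so its level is read only in cells that passed that gate.

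Cited1, a transcriptional coactivator lost when progenitors begin to respond to induction, followed a similar size of difference. Its levels were 21.1, 27.9 and 19.9 RPKM in controls and 15.5, 15.5 and 21.2 RPKM in mutants. Mutant replicate 3 lay among the controls, and the other mutant pools lay below them. The log2 fold change was -0.39 (95% interval -0.76 to -0.02; limma adjusted p 0.235). Cited1 lies on chromosome X at 102247381 to 102252181, and the pools differed in Xist, the RNA of the inactive X chromosome. Xist measured 154, 0.034 and 0.0278 RPKM in control pools and 60.1, 180 and 122 RPKM in mutant pools, and the part of sex in the Cited1 values was not tested.

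Eya1, on chromosome 1 at 14168954 to 14310235 and the most abundant of the 10, stood at 279.7, 257.3 and 314.8 RPKM in controls and 240.3, 213 and 244.7 RPKM in mutants. Every mutant pool was below every control pool. Its log2 fold change was -0.28 (95% interval -0.59 to 0.02; limma adjusted p 0.287), and the mutant mean was 81.9% of the control mean. Relative to the median of all genes this difference was -0.16, and with quantile normalization the log2 fold change was -0.06 (limma adjusted p 0.869).

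Osr1, on chromosome 12 at 9570116 to 9581500, a zinc finger factor of the earliest kidney mesenchyme and 1 of the 2 genes with a seed match, varied widely between pools. It measured 19.1, 22.1 and 31.3 RPKM in controls and 14.7, 17.3 and 26 RPKM in mutants, and the groups overlapped. The log2 fold change was -0.32 (95% interval -0.80 to 0.15; limma adjusted p 0.417). Sall1, on chromosome 8 at 89027235 to 89044162, the zinc finger gene with the other match, was at 57.4, 54.3 and 61.7 RPKM in controls and 55.9, 46.6 and 59.3 RPKM in mutants. Its log2 fold change was -0.10 (95% interval -0.40 to 0.19; limma adjusted p 0.671), 0.00 after median-of-ratios scaling and 0.07 after quantile normalization, so its sign depended on the scaling. Neither gene with a seed match was called in either direction.

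Wt1, Pax2 and Uncx had point estimates above 0, though for Pax2 and Uncx the sign turned when some single libraries were left out. Wt1, on chromosome 2 at 105126529 to 105173616, a zinc finger factor of progenitors and later of podocytes, was at 46.2, 46.2 and 47.7 RPKM in controls and 58.8, 41.8 and 55.3 RPKM in mutants. Controls were tight, and mutant pools fell on both sides of them. The Wt1 log2 fold change was 0.14 (95% interval -0.18 to 0.45; limma adjusted p 0.6), and 0.24 after median-of-ratios scaling (adjusted p 0.338). Leaving out mutant replicates 1, 2 and 3 in turn gave 0.04, 0.29 and 0.08. The pool with the highest Wt1, mutant replicate 1, also had the highest sum of the podocyte list, 14.3 RPKM against 5.93 to 9.22 in the other 5 libraries; the part of podocyte RNA in Wt1 was not tested.

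Pax2, on chromosome 19 at 44756045 to 44837871, a paired-box factor needed in both mesenchyme and ureteric bud, was at 30.5, 31.9 and 41 RPKM in controls and 34.4, 29.7 and 41.1 RPKM in mutants. The Pax2 log2 fold change was 0.02 (95% interval -0.32 to 0.37; limma adjusted p 0.943). An antisense gene, 1700039E22Rik, lies within Pax2 and was at 11.5, 7.66 and 17.6 RPKM in controls and 18.5, 13.3 and 21.6 RPKM in mutants, so without a known strand setting the reads of this pair cannot be told apart. The groups overlapped in Pax2 and in Uncx. Uncx, on chromosome 5 at 139543494 to 139548179, was at 14.4, 15.3 and 18.6 RPKM in controls and 15.8, 15 and 19 RPKM in mutants, with a log2 fold change of 0.04 (95% interval -0.28 to 0.37; limma adjusted p 0.882). For these 3 genes the intervals leave out a 2-fold difference in either direction, but smaller differences were not resolved with 3 pools a group.

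**Figure D2:**
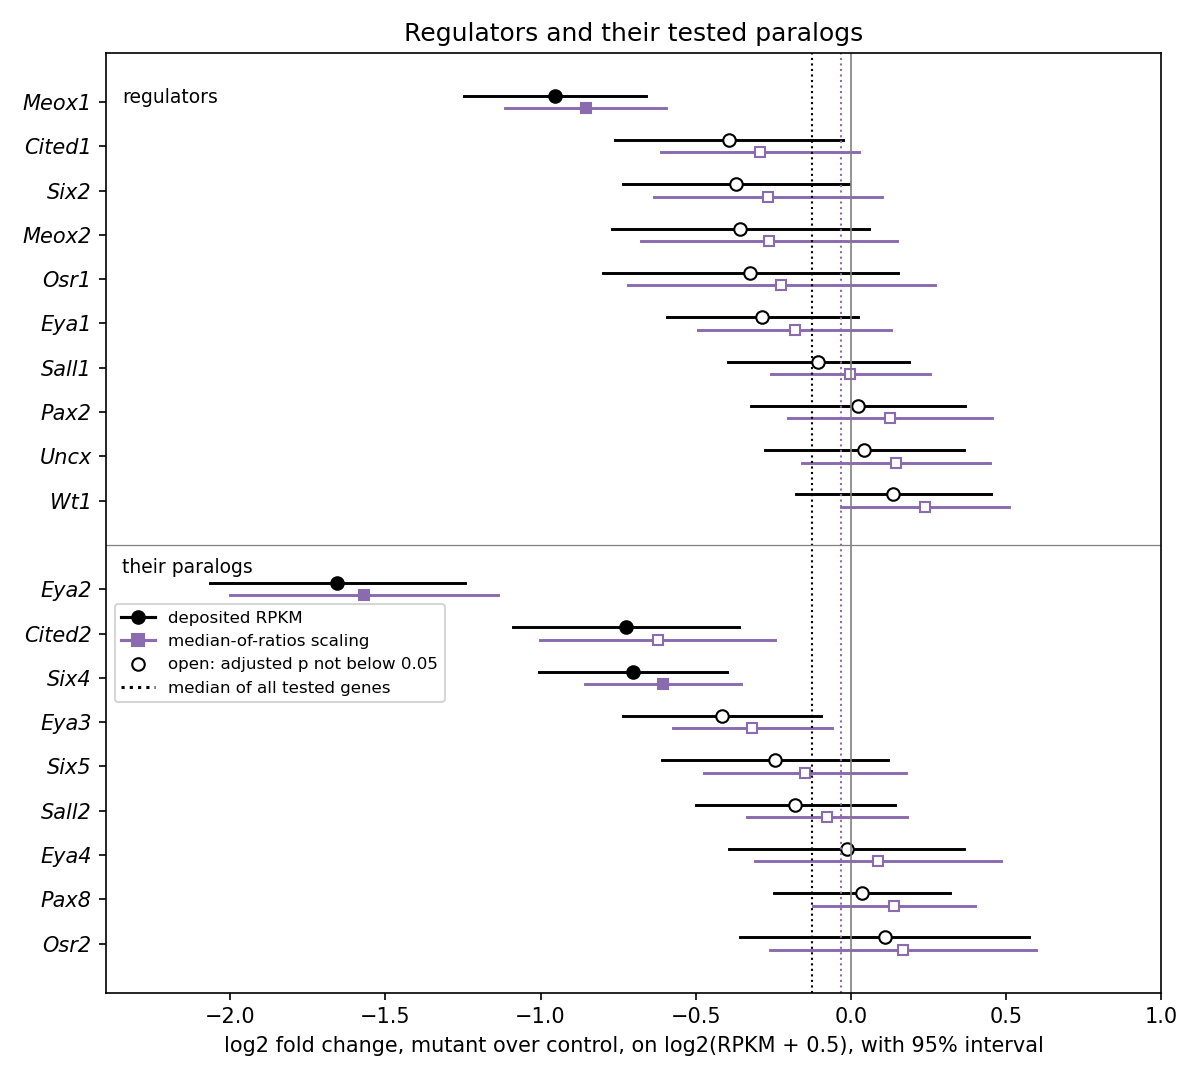
Log2 fold change with 95% interval for the 10 regulators (top) and their 9 tested paralogs (bottom), from deposited RPKM (black circles) and after median-of-ratios scaling (purple squares), where filled markers passed at an adjusted p of 0.05 and dotted lines mark the median of all tested genes on each scale. Among regulators Meox1 is filled on both scales, among paralogs Eya2 and Six4 are, and Cited2 is filled on the deposited scale alone.

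Levels were next set against Six2 inside each library, a ratio that no library-wide scaling can move. Of the 9 other regulators, 1 had a lower ratio in all mutant pools than in any control pool, and this was Meox1. Over all other tested genes 1.6% showed that. The Meox1 level was 19.8%, 22.7% and 15.7% of the Six2 level in controls and 11.6%, 13.85% and 11.95% in mutants. The ratios of Wt1, Pax2 and Uncx, 3 of 9, were higher in all mutant pools than in any control pool, and so were those of 20.3% of all other tested genes. A ratio also moves with its denominator. On deposited values the log2 fold change was -0.37 for Six2, 0.14 for Wt1, 0.02 for Pax2 and 0.04 for Uncx, none of them called. The Wt1 level was 55.4%, 66.1% and 45.9% of Six2 in controls and 92.5%, 73.3% and 71.8% in mutants. The Pax2 level was 36.6%, 45.7% and 39.5% of Six2 in controls and 54.2%, 52.2% and 53.4% in mutants. The Uncx level was 17.3%, 21.9% and 17.9% in controls and 24.8%, 26.3% and 24.7% in mutants. For each of these 4 ratios the exact two-sided permutation p was 0.1, the smallest possible, and 0.317 adjusted over 19 ratios. Ratios of Cited1, Osr1, Sall1, Eya1 and Meox2 to Six2 overlapped between genotypes, 5 of 9 in all.

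**Figure D3:**
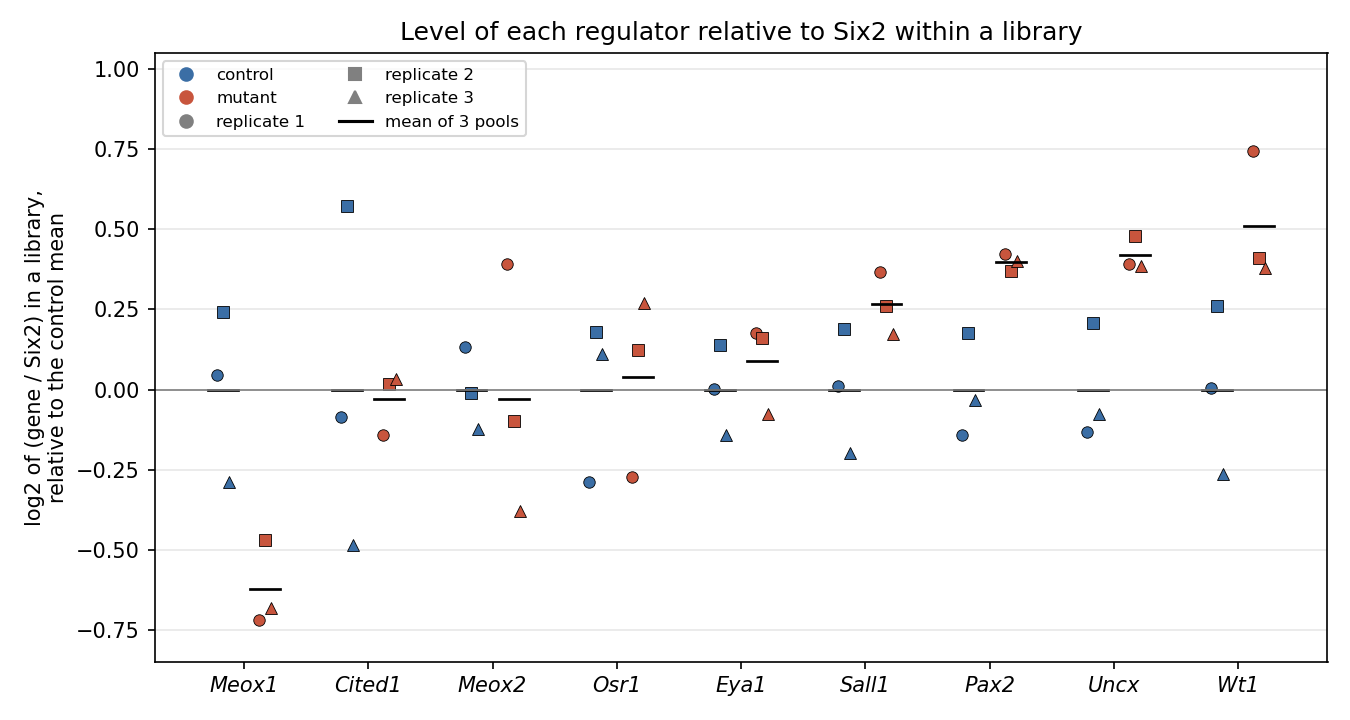
Log2 of each regulator's level over Six2 within a library, relative to the control mean, for control (blue) and mutant (red) pools, with bars for the mean of 3 pools. The red Meox1 points all lie below the blue ones, with a mean log2 difference of -0.62, and the red Pax2, Uncx and Wt1 points all lie above, with means of 0.40, 0.42 and 0.51.

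Pools of 1 genotype also differed from each other. The highest control pool was replicate 3 in 8 of 10 regulators, beside 30.2% of all tested genes. The highest mutant pool was replicate 3 in 8 of 10, beside 53.7%, and the lowest was replicate 2 in 7 of 10, beside 58.4%. These are descriptions of the list, with no test. The stroma list, which includes collagen genes and Pdgfra, was lowest in control replicate 3, at 90.9 RPKM in sum against 156 and 229 in the other controls. In mutants it was at 162, 268 and 242 RPKM. Among controls, the pool with the least stroma signal was thus the highest for 8 of 10 regulators, Six2, Osr1, Eya1 and Pax2 among them. Cited1 was highest in control replicate 2, the control with the most stroma signal, and Meox1 in control replicate 1. Among mutants, the pool with the least stroma signal was replicate 1. Wt1 and Meox2 were highest there, the other regulators were highest in replicate 3, and Osr1, Cited1 and Meox1 were lowest in replicate 1. Single libraries moved these estimates both ways. Leaving out each library in turn, the log2 fold change of Six2 ran from -0.22 (without control replicate 3) to -0.51 (without control replicate 2). For Osr1 it ran from -0.13 (without control replicate 3) to -0.55 (without mutant replicate 3), with -0.15 without mutant replicate 1. For Eya1 it ran from -0.21 (without control replicate 3) to -0.35 (without control replicate 2), and for Meox1 from -0.89 (without mutant replicate 1) to -1.04 (without mutant replicate 3). The part of stromal RNA in the differences of Six2, Osr1 and Eya1 was not tested.

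**Figure D4:**
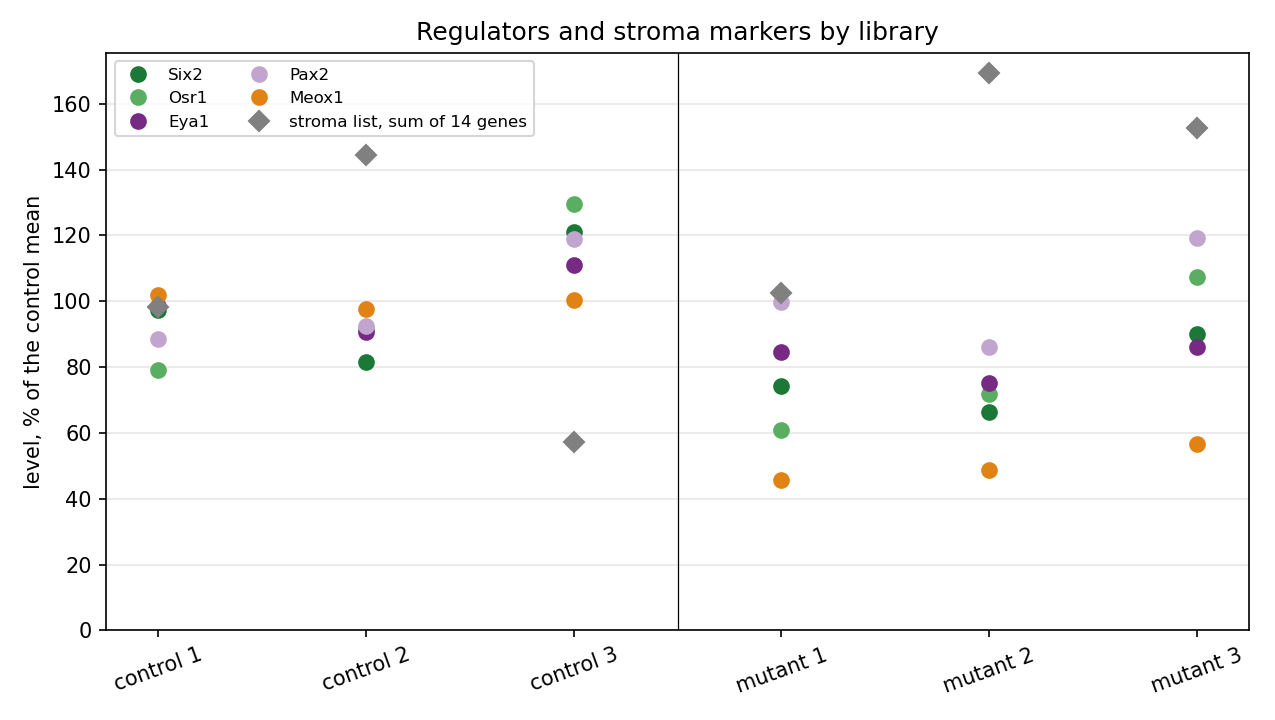
Level of 5 regulators (circles) and the summed stroma list (grey diamonds) in each of the 6 libraries, as a percent of the control mean. Control replicate 3 has the lowest stroma sum, 90.9 RPKM, and the highest Six2, 103.7 RPKM, while Meox1 is level over the controls and low in all 3 mutant pools.

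Paralogs of the regulators were measured from a list of 14 genes. The filter of a mean of 0.5 RPKM left 9 of them to test. Of these 9, 3 fell, Eya2, Six4 and Cited2, beside 1.81% of all tested genes, and 6 did not pass. The list's median log2 fold change was -0.25, beside -0.12 for all tested genes, and -0.15 after median-of-ratios scaling, beside -0.03. The groups did not overlap, with mutants lower, in 4 of 9, these 3 and Eya3, beside 18% of all tested genes. This list was also chosen with earlier results known, so its counts are descriptions.

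Eya2, a second Eya phosphatase gene, on chromosome 2 at 165595032 to 165771727 of mm10, was at 3.83, 3.43 and 4.92 RPKM in controls and 0.853, 1.13 and 0.843 RPKM in mutants. The lowest control was far above the highest mutant. Its mean went from 4.06 ± 0.771 to 0.941 ± 0.161 RPKM (SD, n = 3), and its log2 fold change was -1.65 (limma adjusted p 0.000616, SE 0.19). All 18 alternatives kept the call, though the looser threshold of 0.1 could not end it, with limma adjusted p up to 0.0227. Against Eya1 in the same library, Eya2 was at 1.37%, 1.33% and 1.56% in controls and 0.355%, 0.529% and 0.3445% in mutants. Reads of Eya2 came to 887 in control pools together and 190 in mutant pools, and it had no seed match in its 613-base 3' UTR.

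Six4, on chromosome 12 at 73099609 to 73113456, a homeobox gene related to Six2, was at 10.1, 11.9 and 10.6 RPKM in controls and 6.48, 5.99 and 6.98 RPKM in mutants, with no overlap. It had a log2 fold change of -0.70 and an SE of 0.14 (limma adjusted p 0.0186, 0.0203 after median-of-ratios scaling). The call was lost with no filter on low values (0.0527) and on leaving out control replicate 1 (0.0599) or 1 of mutant replicates 1 (0.0782) and 2 (0.102). Its longest 3' UTR, 5170 bases, held 7 seed matches. Six5 was not called (-0.25; limma adjusted p 0.421).

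Cited2, on chromosome 10 at 17723218 to 17725674, a coactivator related to Cited1, was at 109, 127 and 93.9 RPKM in controls and 81.6, 63.2 and 55.2 RPKM in mutants. Its log2 fold change was -0.72 (SE 0.17; limma adjusted p 0.0396), and the call was lost after median-of-ratios (0.0875) or quantile (0.071) scaling, with no filter on low values (0.144), with no variance trend (0.0787) and with array weights (0.0607). Leaving out control replicate 1 (0.118), or mutant replicate 2 (0.21) or 3 (0.144), also ended it. Eya3 (-0.41; limma adjusted p 0.157), Sall2 (-0.18; 0.5), Osr2 (0.11; 0.788), Eya4 (-0.01; 0.972) and Pax8 (0.04; 0.893) did not pass. Pax8, which cooperates with Pax2 in nephron formation, was as abundant as Wt1, at 42.3 to 49.6 RPKM in controls and 43.1 to 52.6 in mutants.

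**Figure D5:**
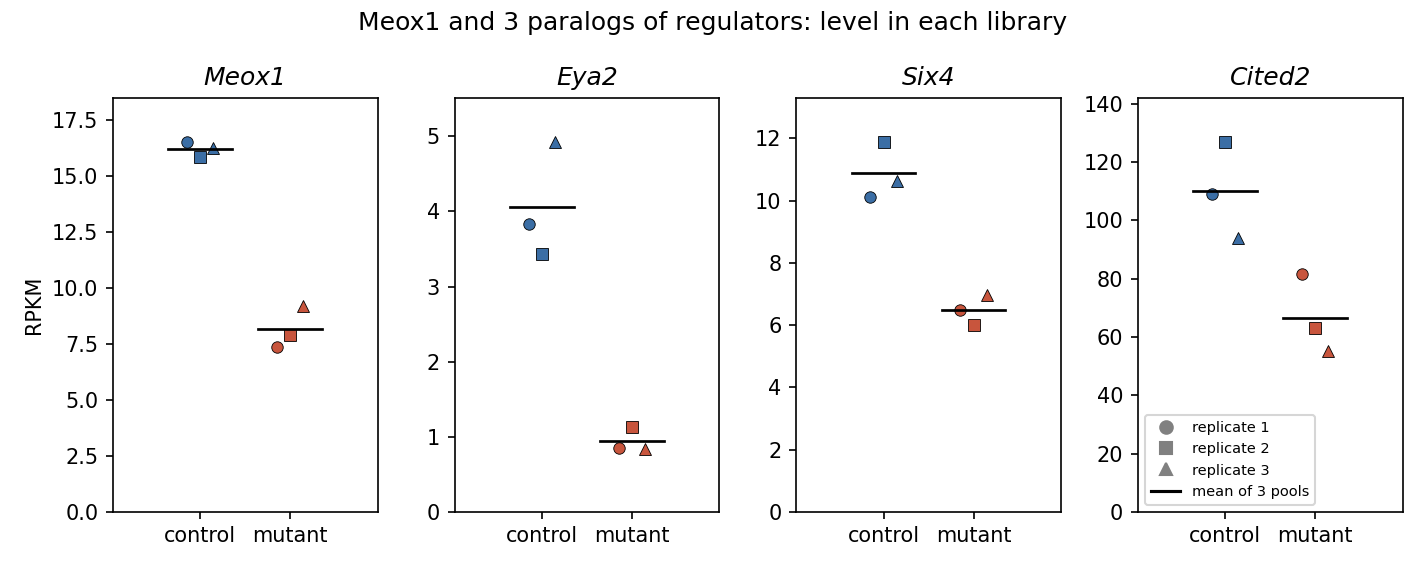
RPKM of Meox1 and of the paralogs Eya2, Six4 and Cited2 in 3 control (blue) and 3 mutant (red) pools, each on an axis from 0, with bars for the mean of 3. In all 4 panels every mutant pool lies below every control pool; the gap is widest in proportion for Eya2, 3.43 to 4.92 against 0.843 to 1.13.

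Other regulators of the metanephric mesenchyme gave no call in 24 tested genes, in either direction. Their median log2 fold change was -0.13, close to that of all genes. The lowest p belonged to Tcf7l1, a repressor of Wnt target genes (control 21.0 ± 1.88 and mutant 14.1 ± 1.83 RPKM, SD, n = 3; a log2 difference of -0.57 with a limma adjusted p of 0.0524), and to Mycn, a growth-promoting Myc family gene (control 17.5 ± 3.39 and mutant 26.1 ± 3.57 RPKM, SD, n = 3; 0.57 with a limma adjusted p of 0.0977). Mycn passed after median-of-ratios scaling (0.0343) and Tcf7l1 did not (0.0745). In the list of 17 chromatin and cofactor partners, which holds the NuRD complex that binds Sall1, 0 passed. There 16 of 17 lay below 0, beside 68.1% of all tested genes, and 14 did after that scaling, beside 55.3%. Chd4, the NuRD remodelling ATPase, had the lowest p there (-0.47; limma adjusted p 0.0901), followed by Smarca4 (-0.32; 0.22).

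Genes reported to lie downstream of these regulators did not pass either, 0 of 12 tested. Gas1, which aids FGF signalling in progenitors, stood at -0.36 on the log2 scale (limma adjusted p 0.181), and the integrin gene Itga8 at 0.34 (0.194). Six2, Cited1, Pax2, Sall1 and Eya1 are themselves on that list. Progenitor markers that are not transcription regulators gave 1 higher (Tmem100) and 1 lower (Capn6) of 16 tested, beside 1.32% and 1.81% of all tested genes. Capn6, a calpain family gene, averaged 106 ± 8.00 RPKM in controls and 73.0 ± 6.08 RPKM in mutants (SD, n = 3), which is -0.54 on the log2 scale (limma adjusted p 0.0449). It did not pass with median-of-ratios (0.124) or quantile (0.206) scaling, with no filter (0.104) or with no variance trend (0.0905), and it passed without control replicate 3 but not without any other library (up to 0.154). Capn6, like Cited1, lies on chromosome X, and the part of sex in its values was not tested. Tmem100, a transmembrane protein gene, averaged 1.80 ± 0.582 RPKM in controls and 3.93 ± 1.03 RPKM in mutants (SD, n = 3; log2 fold change 0.95). Its limma adjusted p was 0.0441, and 0.163 without control replicate 1 and 0.18 and 0.194 without mutant replicates 1 and 2. It also did not pass with no filter on low values (0.18), quantile scaling (0.0604) or no variance trend (0.0583). Ncam1, of the same list, was not called on the deposited values (log2 fold change 0.44, limma adjusted p 0.101). After median-of-ratios (0.0375) and quantile (0.0382) scaling Ncam1 passed, higher in mutants. In the list for committed progenitors and the renal vesicle 2 of 15 rose, beside 1.32% of all tested genes. They were the cadherin gene Cdh6 (0.87 on the log2 scale, limma adjusted p 0.0146) and the homeobox gene Emx2 (1.00, 0.0342). Cdh6 did not pass without mutant replicate 1 (0.0776) or 3 (0.0576), nor Emx2 without control replicate 1 (0.134) or mutant replicate 1, 2 or 3 (0.106, 0.161 and 0.103). With no filter on low values neither passed (0.0757 and 0.153). Of the 15, 1 lay below 0, beside 68.1% of all tested genes, and 1 after median-of-ratios scaling, beside 55.3%. This list had a median log2 fold change of 0.30, and of 0.40 after that scaling, beside -0.12 and -0.03. Wnt4 (0.37, limma adjusted p 0.202) passed only after quantile scaling (0.048). In the marker lists of other cells, 6 of 14 macrophage and leukocyte genes were tested. Of these 6, 3 were called higher, beside 1.32% of all tested genes. They were Fcer1g (log2 fold change 1.24, limma adjusted p 0.00264), Ctss (1.55, 0.0046) and Tyrobp (1.23, 0.0491). Fcer1g averaged 0.730 RPKM in controls and 2.41 in mutants. Ctss averaged 0.208 RPKM in controls and 1.57 in mutants, and Tyrobp 0.433 and 1.54. Both passed the filter of 0.5 RPKM only through the mutants, so their calls lend no support to a rise. A further tested gene of this list, not called, entered in the same way. The count of 3 of 6 thus depends on the filter and is a description only. Tyrobp did not pass without mutant replicate 1, 2 or 3 (0.142, 0.236 and 0.129), after median-of-ratios (0.0507) or quantile (0.0805) scaling, with a pseudocount of 0.1 (0.116), with no filter (0.186), with no variance trend (0.0591) or with voom (0.0527). The tubule transporter gene Slc12a1 was called higher as 1 of 4 tested tubule genes (2.43, limma adjusted p 0.00561), but not with no filter on low values (0.0875). Slc12a1 averaged 0.326 RPKM in controls and 4.48 in mutants, so it too passed the filter only through the mutants. None of 14 stroma genes passed (0 of 14), among them Col1a2 (0.69, 0.217) and Dcn (0.66, 0.22). Yet 0 of 14 lay below 0, beside 68.1% of all tested genes, and 0 after median-of-ratios scaling, beside 55.3%. The stroma list had a median log2 fold change of 0.56, and of 0.66 after that scaling, beside -0.12 and -0.03 for all tested genes.

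Genes whose profile over the 6 libraries lay nearest to Meox1 and to Six2 were found among 7501 others with a mean of at least 5 RPKM, by the root mean square distance of centred log2 levels. Nearest to Meox1 were Rps6ka2 (distance 0.07), the Wnt agonist gene Rspo3 (0.07), the predicted gene Gm3650 (0.09), Rnf41 (0.09) and Limd1 (0.105), where the median gene was at 0.44. Rspo3 was at 61.1, 56.1 and 57 RPKM in controls and 29.6, 31 and 31.7 RPKM in mutants. Nearest to Six2 were Wnk4 (0.05), Adgrl3 (0.06), Fryl (0.06), Dst (0.07) and Chd7 (0.07), where the median gene was at 0.30. Wnk4 was at 11.5, 10.3 and 14.6 RPKM in controls and 8.31, 7.95 and 10.9 RPKM in mutants. Likeness over 6 libraries that fall into 2 genotypes says that levels ran alike in these pools and nothing about control or function.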

How the data were processed

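RNA of sorted nephron progenitors was compared between 3 control and 3 mutant libraries, each a pool of 4 embryos; p-values measure the spread between pools. The authors deposited RPKM values for 27179 Entrez Gene entries, normalized to gene length and library depth; per the submitters' processing notes the build was mm10 and FastQC and limma were used, and per the file headers names carry the word subread. How reads were counted, and against which gene models, is not given in the sources used here. Symbols (RefSeq, GRCm38.p6) matched 25275 entries; positions and 3' UTRs are from GENCODE M21 on the same build.

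The test was limma 3.58.1 (R 4.3.3), run on log2(RPKM + 0.5) over the 13463 genes averaging 0.5 RPKM or more, with a mean-variance trend and two-sided Benjamini-Hochberg adjustment at 0.05; fold changes on this scale understate low genes. Depth and whole reads came from the grid of low values (within 0.02 of a read, for 13461 of the tested genes) and cover counting error only. A unit may be a read or a pair. Tested on data simulated for this comparison (13370 genes), limma called 20.9% of 1.5-fold, 79.1% of 2-fold and 96.97% of 4-fold changes, and 7.09% of its calls were false. The regulators, gene lists and tests were chosen with earlier results of these data known. Named genes were the 10 regulators, their paralogs, the called genes (or the 2 of lowest p) of the other lists, and the 5 nearest profiles. Ncam1 and Wnt4 were added because they passed after other scaling. Lists of endothelium, ureteric bud, podocyte, tubule and erythroid genes are given as sums, apart from the called Slc12a1. One paralog is not reported here. Python 3.11.15 made tables and figures.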

Additional observations from a re-analysis of the deposited data

How the results depend on the processing

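Of the 10 regulators, 1 was called in each of the 18 alternatives, and it was Meox1 each time. The alternative at an adjusted p of 0.1 is the main fit with a looser threshold, so it could add calls but not end one. The number of genes called over the whole table was 422, and 143 with no filter on low values, 685 with voom on recovered reads, and 730 at an adjusted p of 0.1. Leaving out 1 library gave 148 to 1083: 210 without control replicate 1, 1083 without control replicate 3, and 202, 148 and 243 without mutant replicates 1, 2 and 3; the cause was not tested. Regulators with an 8mer site numbered 1 instead of 2, since fewer kinds of site count. Signs turned only for genes that were not called. Sall1 was at 0.065 on the log2 scale with quantile normalization, and Eya4 at 0.089 after median-of-ratios scaling and 0.15 on quantile-normalized values. When 1 library was left out, Pax2 ranged from -0.094 to 0.15, Uncx from -0.055 to 0.15, Eya4 from -0.18 to 0.15 and Pax8 from -0.041 to 0.10. The labels do not say that replicate numbers pair the pools. Deviations of same-numbered pools correlated over genes at 0.05, 0.16 and 0.15, each higher than with any other number, which is a hint from the data and not the design. With the replicate number as a block, 1 regulator and 393 genes were called, and Capn6 (limma adjusted p 0.0559) and Tmem100 (0.0538) did not pass. With 3 pools a group, simulated 1.5-fold changes were mostly missed, with 20.9% called, and 79.1% of 2-fold changes were called. A gene that was not called may therefore still differ by 1.5-fold or more.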
